A study of Mus musculus with 36 samples.

Results

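The 34 genes described here are markers and regulators of the cells that build brain blood vessels. They comprise 26 endothelial genes and 8 genes of mural cells, the pericytes and smooth muscle cells that wrap the endothelium. The list was chosen from textbook vessel markers after lower Sox18 had been seen in wild-type mice given imipramine, and the question was whether other vessel genes share that difference. All 34 were among the 52636 genes of the table, each matched to 1 Ensembl identifier, and all 34 were among the 25572 genes that passed the filter on low values.

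RNA was sequenced from right-side punches of the anterior cingulate cortex (aCC), a frontal midline region, in 36 females of the mouse strain C57BL/6NTac-Brd1. WT mice and mice with 1 targeted-deletion allele of Brd1 (Brd1+/-) received subcutaneous saline (vehicle) or the tricyclic antidepressant imipramine (IMN) at 10 mg/kg, giving 8 WT vehicle, 10 WT IMN, 9 Brd1+/- vehicle and 9 Brd1+/- IMN libraries. Each library came from a separate mouse. The mice were young adults, the WT mice were littermates of the mutants, and all 4 groups went through injections on consecutive days, a tail suspension test, an open field and a forced swim soon before the brains were taken. The deletion was carried in the germ line and was not restricted to a cell type, so it was present in vessel cells as well as in neurons.

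Brain endothelium forms the blood-brain barrier, which rests on sealed junctions, on carriers that import nutrients and on pumps that return drugs to the blood. Pericytes share the basement membrane of capillaries, and smooth muscle surrounds arterioles. Sox7, Sox17 and Sox18 form the SoxF group of transcription factors, which act in endothelial cells during vessel growth and arterial and lymphatic specification, and Erg and Fli1 are ETS family factors of the same cells. In a bulk tissue punch, fewer cells of a type and less RNA per cell cannot be told apart.

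SoxF proteins bind the core AACAAT and ETS factors favour the core CCGGAA, so the 250 bases before the transcription start were searched for both cores on both strands. RefSeq promoter sequences (GRCm38.p6) were matched for 22 of the 34 members, and those of Cdh5, Pecam1, Esam, Bsg, Ly6a, Vwf, Sox7, Sox17, Sox18, Fli1, Pdgfrb and Tagln were not analysed here. The core AACAAT was present in 4 of the 22 members (18.2%, namely Emcn, Erg, Slco1a4 and Tek) and in 10.9% of 27025 genes with a promoter entry. The core CCGGAA was present in 1 of the 22 (4.55%, namely Kdr) and in 13.6% of those genes. A match is a description of the letters, not a binding site. The promoter of Erg also holds a match and is not printed. The promoters of Slco1a4 (chr6:141856221-141856470, minus strand), Tek (chr4:94739039-94739288, plus strand), Emcn (chr3:137340828-137341077, plus strand) and Kdr (chr5:75978456-75978705, minus strand) are shown because they hold a match and Slco1a4 recurs in the results, with the matched core in capitals:
Slco1a4: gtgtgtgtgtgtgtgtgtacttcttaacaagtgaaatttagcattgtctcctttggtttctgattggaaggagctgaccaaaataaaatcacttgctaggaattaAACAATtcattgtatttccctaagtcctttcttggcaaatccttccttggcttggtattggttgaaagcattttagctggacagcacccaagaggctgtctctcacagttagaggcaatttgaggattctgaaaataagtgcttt
Tek: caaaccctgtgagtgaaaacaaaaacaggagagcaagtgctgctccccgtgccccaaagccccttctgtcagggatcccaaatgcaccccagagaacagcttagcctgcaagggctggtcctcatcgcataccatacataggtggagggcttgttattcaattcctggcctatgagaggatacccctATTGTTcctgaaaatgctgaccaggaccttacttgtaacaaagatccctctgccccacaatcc
Emcn: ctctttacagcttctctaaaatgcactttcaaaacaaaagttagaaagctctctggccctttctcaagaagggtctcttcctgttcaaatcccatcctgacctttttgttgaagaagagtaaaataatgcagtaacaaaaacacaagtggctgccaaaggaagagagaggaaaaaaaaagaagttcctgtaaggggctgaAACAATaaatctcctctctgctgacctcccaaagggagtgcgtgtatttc
Kdr: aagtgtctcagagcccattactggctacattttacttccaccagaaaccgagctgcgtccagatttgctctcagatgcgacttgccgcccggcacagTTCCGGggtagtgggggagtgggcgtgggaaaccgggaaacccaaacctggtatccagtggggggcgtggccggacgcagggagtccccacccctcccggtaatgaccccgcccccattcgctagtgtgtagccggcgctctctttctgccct

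Vessel markers were detected in every library, and no member was at 0 TPM in any of the 36. TPM is scaled for transcript length, so levels can be compared between genes. The median level over all libraries ran from 484 TPM for Bsg, a glycoprotein of endothelium that other brain cells also carry, to 0.919 TPM for Sox7. Among the defining markers, the median was 21.1 TPM for Cldn5, the main claudin of brain endothelial tight junctions, and 40.8 TPM for Rgs5, a pericyte regulator of G protein signalling. Endothelial and mural markers were thus both present, with the limit that Bsg and Slc2a1 are also made by other brain cells.

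Members differed widely in how much they varied between mice of the same group. The within-group SD on the log2 scale was 1.05 for Tagln and 0.881 for Acta2, both contractile smooth muscle genes, 0.907 for Anpep, an aminopeptidase of pericytes, and 0.748 for Vwf, the clotting factor stored by larger vessels. It was 0.125 for Bsg, 0.168 for Rgs5 and 0.186 for Egfl7, a secreted endothelial protein. Sox18 had an SD of 0.254. The precision of a comparison therefore differed between members and was lowest for the smooth muscle genes and Anpep.

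Sox18 (ENSMUSG00000046470, chr2:181669836-181671640, minus strand) was lower in the IMN groups of both genotypes. In Brd1+/- mice it ran from 7.80 to 15.3 TPM with vehicle (median 9.79) and from 5.30 to 11.0 TPM with IMN (median 8.16). The groups overlapped, but 8 of the 9 IMN libraries lay below the vehicle mean. The vehicle mean was 10.3 TPM ± 2.33 (SD, n = 9), and the mean of the IMN libraries was 8.03 TPM ± 1.70 (SD, n = 9).

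The lower Sox18 that led to the list is recorded for the WT mice. The Brd1+/- mice share no library with them, and p-values are given here. The list was nonetheless made with all 36 libraries at hand. These p-values are therefore not an independent test of Sox18, and they are given as a description. The log2 fold change, on the scale of log2(TPM + 0.5) used for every fold change here, was -0.345 (SE 0.14, 95% interval -0.63 to -0.06), or 0.787 of the vehicle level. The unadjusted limma p was 0.0194, the two-sided exact permutation p over 48620 arrangements was 0.0222, and the limma p adjusted over all genes tested was 0.826. The difference thus passed neither the unadjusted level of 0.01 that the study used nor an adjusted p of 0.05. Across the alternative settings, including those without 1 library, the unadjusted limma p ran from 0.00596 to 0.0506 and the adjusted p from 0.554 to 1.0, and no setting changed the direction.

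In WT mice Sox18 ran from 8.71 to 15.2 TPM with vehicle (median 12.3) and from 6.94 to 9.48 TPM with IMN (median 7.64). All 10 IMN libraries lay below the vehicle mean, and 8 of the 10 sat below the lowest vehicle library. The log2 fold change was -0.54 (SE 0.10). This contrast led to the choice of the list, so its values are a description and carry no test.

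**Figure D1:**
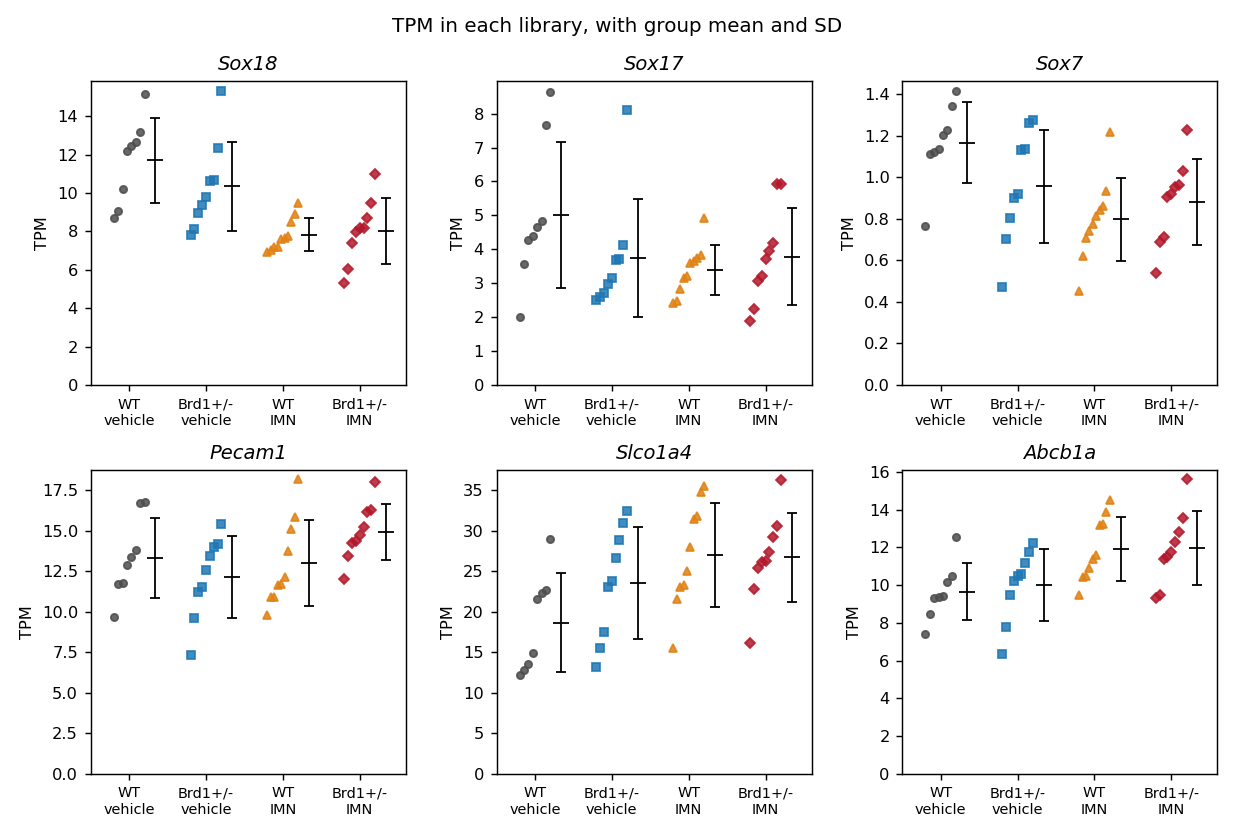
TPM (vertical axes, from 0) in each of the 36 libraries for 6 members, by group (horizontal axes); points are libraries and the bar beside each group is the mean with its SD. All but 1 of the IMN libraries lie under 10 TPM for Sox18, and the groups overlap for every gene shown.

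The other SoxF genes had log2 fold changes near 0 with IMN in Brd1+/- mice. Sox17 (ENSMUSG00000025902, chr1:4490931-4497354, minus strand), a factor of arterial endothelium, ran from 2.50 to 8.11 TPM with vehicle (median 3.15) and from 1.88 to 5.93 TPM with IMN (median 3.71). Its log2 fold change was 0.02 (SE 0.21, 95% interval -0.43 to 0.47, adjusted limma p = 0.997). Vehicle replicate 7 held the highest value, and without it the log2 fold change was 0.161. Sox7 (ENSMUSG00000063060, chr14:63943673-63950732, plus strand) ran from 0.471 to 1.28 TPM with vehicle (median 0.921) and from 0.539 to 1.23 TPM with IMN (median 0.917), and its log2 fold change was -0.07 (SE 0.13, 95% interval -0.33 to 0.20, adjusted limma p = 0.992). Both intervals hold 0, and the wide interval of Sox17 also holds the value of Sox18 in the same mice.

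In WT mice all 3 SoxF genes had log2 fold changes below 0 with IMN, again as a description. Sox17 had medians of 4.53 TPM with vehicle (2.01 to 8.62) and 3.41 TPM with IMN (2.43 to 4.93), with a log2 fold change of -0.43 (SE 0.20). Sox7 had medians of 1.17 TPM (0.765 to 1.41) and 0.794 TPM (0.454 to 1.22), with a log2 fold change of -0.37 (SE 0.11). The added 0.5 TPM pulls the fold changes of low-level members such as Sox7 toward 0. Across the alternative settings that kept every library, Sox7 ran from -0.513 to -0.272, beside -0.575 to -0.502 for Sox18. The groups overlapped for both genes. WT vehicle replicate 1 held the lowest Sox7 and Sox17 of its group, and without it the log2 fold changes were -0.422 for Sox7 and -0.575 for Sox17, beside -0.585 for Sox18. Those of Sox7 and Sox17 are the lowest with any 1 library left out. Over all such fits Sox7 ran from -0.422 to -0.32, Sox17 from -0.575 to -0.309 and Sox18 from -0.593 to -0.483.

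The difference of the IMN effects between genotypes was fitted over all 36 libraries. This fit contains the WT contrast that led to the list, so its values for the members are a description with no test. The Brd1+/- less WT difference was 0.19 (SE 0.17, 95% interval -0.15 to 0.54) for Sox18, 0.45 (SE 0.30) for Sox17 and 0.30 (SE 0.16) for Sox7.

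The mean of the other endothelial genes lay close to its vehicle level with IMN. The mean log2(TPM + 0.5) of the other 25 endothelial members was 3.70 ± 0.150 (SD, n = 9) in Brd1+/- vehicle and 3.73 ± 0.140 (SD, n = 9) in Brd1+/- IMN, and 3.74 ± 0.175 (SD, n = 8) and 3.68 ± 0.247 (SD, n = 10) in the matching WT groups. Sox18 less that mean went from -0.286 ± 0.301 (SD, n = 9) with vehicle to -0.664 ± 0.186 (SD, n = 9) with IMN in Brd1+/- mice, a difference of -0.378. In WT mice it went from -0.153 ± 0.177 (SD, n = 8) to -0.627 ± 0.137 (SD, n = 10), a difference of -0.474, and the highest IMN library (-0.354) lay just above the lowest vehicle library (-0.380). Without Brd1+/- vehicle replicate 7, the library with the highest Sox18, the difference in Brd1+/- mice was -0.324. The mean holds changes in both directions. With Sox18 counted, 12 of the 26 endothelial members were below 0 in Brd1+/- mice (median 0.02) and 19 in WT mice (median -0.10). In WT mice the mean log2 difference was 0.106 for transport genes, -0.090 for junction genes, -0.113 for receptors and -0.085 for surface and secreted genes. For the transcription factors, Sox18 among them, it was -0.267.

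**Figure D2:**
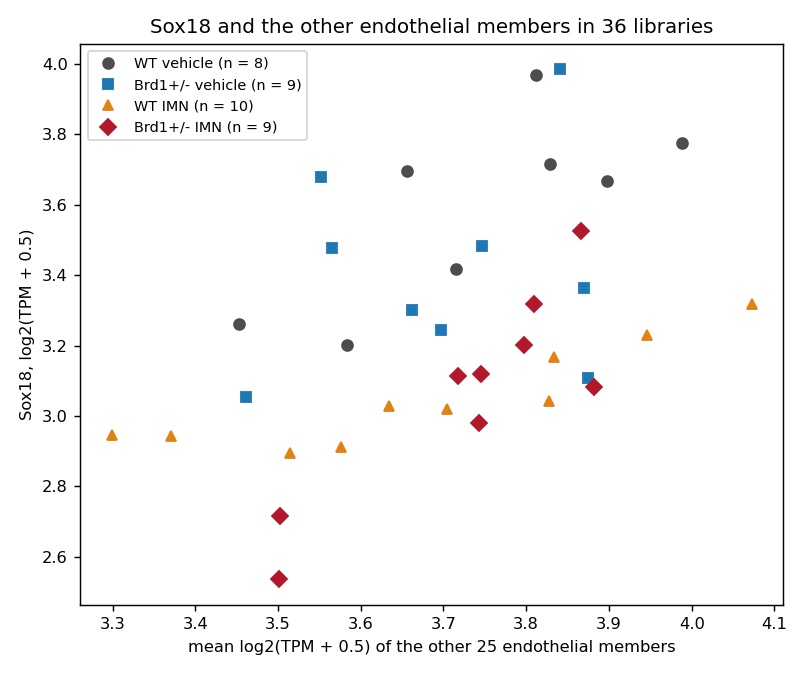
Sox18 (vertical axis, log2(TPM + 0.5)) against the mean of the other 25 endothelial members (horizontal axis, same scale) in 36 libraries, each point a mouse. The IMN libraries of both genotypes mostly lie under the vehicle libraries at the same level of the other members.

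Across the whole list, no member passed the unadjusted level of 0.01 or an adjusted p of 0.05 with IMN in Brd1+/- mice, where 1.22% and 0.00782% of all genes tested did. At an unadjusted p under 0.05 there were 4 of the 34 members, 2 lower (Sox18 and Pltp) and 2 higher (Pecam1 and Abcb1a). Of all 25572 genes tested, 1412 were under 0.05 there. Of the 34 members 13 had a log2 fold change below 0 and 21 above 0, 24 lay within 0.2 of 0, and the median was 0.06 beside 0.01 for all genes tested. In WT mice, 22 members were below 0 and 12 above 0, 25 lay within 0.2, and the median was -0.08 beside -0.01 for all genes. There 4 members passed the unadjusted level of 0.01 (1.58% of all genes did), Sox18 and Sox7 lower and Slco1a4 and Abcb1a higher, and 0 passed an adjusted p of 0.05 (0% of all genes), a count given as a description because this contrast led to the list.

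**Figure D3:**
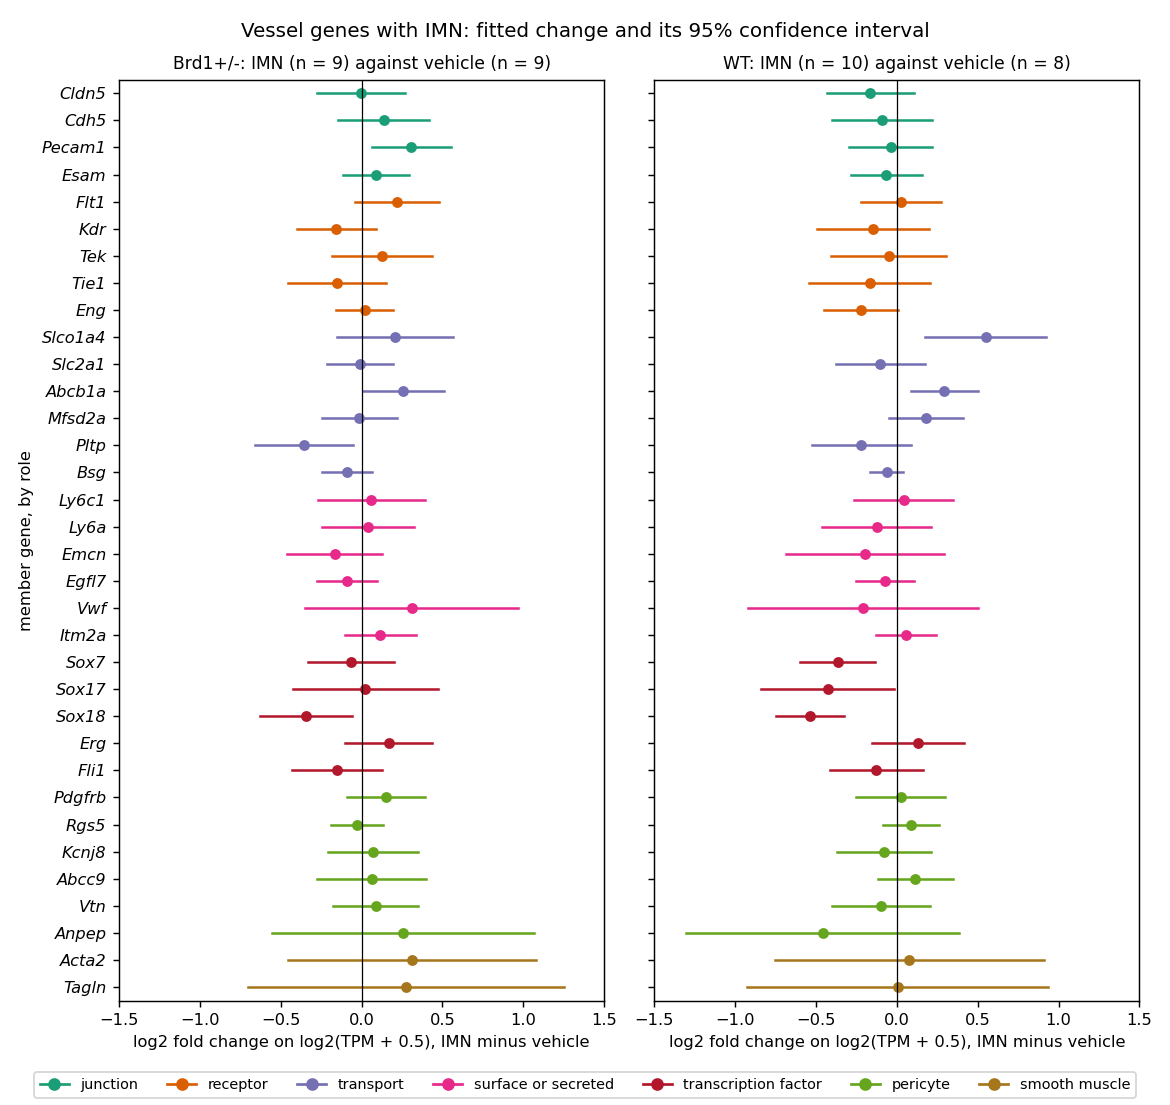
Log2 fold change with IMN against vehicle (horizontal axes, with its 95% confidence interval from limma) for each of the 34 members (rows, coloured by role) in Brd1+/- mice (left) and WT mice (right). Most intervals hold 0, and the smooth muscle genes and Anpep have the widest intervals. In Brd1+/- mice the intervals of Sox18 and Pltp lie below 0 and those of Pecam1 and Abcb1a lie above 0.

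Of the genes of endothelial junctions, Pecam1 stood highest with IMN in Brd1+/- mice and Cldn5 lay at 0. Pecam1 (ENSMUSG00000020717, chr11:106654217-106750628, minus strand), an adhesion molecule of endothelial contacts, ran from 7.34 to 15.4 TPM with vehicle and from 12 to 17.99 TPM with IMN in Brd1+/- mice, with medians of 12.6 and 14.7 TPM. Its log2 fold change there was 0.31 (SE 0.12, unadjusted limma p = 0.0159, adjusted p = 0.826), with 8 of 9 IMN libraries above the vehicle mean. In WT mice it was -0.04 (SE 0.12). Cldn5 had a log2 fold change of 0.00 (SE 0.13, 95% interval -0.27 to 0.27) in Brd1+/- mice and -0.17 (SE 0.13) in WT mice, and Cdh5 (vascular cadherin) and Esam, an adhesion molecule, lay between 0.09 and 0.14 in Brd1+/- mice and between -0.09 and -0.06 in WT mice.

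The receptors of vessel growth factors passed no level in Brd1+/- mice. Flt1, a VEGF receptor that binds VEGF tightly, ran from 9.12 to 21.0 TPM with vehicle and from 15.6 to 20.6 TPM with IMN in Brd1+/- mice, and its log2 fold change was 0.22 (SE 0.12, unadjusted limma p = 0.0917, adjusted p = 0.924). Kdr, the main signalling VEGF receptor, was at -0.16 (SE 0.12) in Brd1+/- and -0.15 (SE 0.17) in WT mice. Tek and Tie1, the angiopoietin receptor and its partner, were at 0.13 (SE 0.15) and -0.15 (SE 0.15) in Brd1+/- mice. Eng, a TGF-beta co-receptor, was at 0.02 (SE 0.08) in Brd1+/- mice and -0.22 (SE 0.11) in WT mice.

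Of all members, the barrier transporters Slco1a4 and Abcb1a had the highest log2 fold changes with IMN in WT mice. Slco1a4 (ENSMUSG00000030237, chr6:141805440-141856199, minus strand), an organic anion carrier of brain endothelium whose promoter is printed above, ran from 12.2 to 29.1 TPM with vehicle (median 18.3) and from 15.5 to 35.5 TPM with IMN (median 26.5) in WT mice. Its log2 fold change was 0.55 (SE 0.18) there, with 9 of 10 IMN libraries above the vehicle mean. In Brd1+/- mice it ran from 13.2 to 32.5 TPM (median 23.8) and from 16.2 to 36.4 TPM (median 26.3), and the log2 fold change was 0.21 (SE 0.17, unadjusted limma p = 0.24, adjusted p = 0.963).

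Abcb1a (chr5:8660077-8748575), the gene of the drug efflux pump P-glycoprotein, had log2 fold changes above 0 with IMN in both genotypes. In Brd1+/- mice it ran from 6.34 to 12.2 TPM with vehicle (median 10.5) and from 9.31 to 15.7 TPM with IMN (median 11.8). The log2 fold change was 0.26 (SE 0.12, unadjusted limma p = 0.0454, adjusted p = 0.888). In WT mice the medians were 9.39 and 11.5 TPM and the log2 fold change was 0.29 (SE 0.10). Pltp (chr2:164839518-164857711), a phospholipid transfer protein, had medians of 37.8 TPM with vehicle (25.7 to 60.8) and 30.4 TPM with IMN (19.4 to 39.3) in Brd1+/- mice. Its log2 fold change was -0.36 (SE 0.14, unadjusted limma p = 0.0232, adjusted p = 0.826), with 8 of 9 IMN libraries below the vehicle mean, and it was -0.22 (SE 0.15) in WT mice. The glucose carrier Slc2a1, the lipid carrier Mfsd2a and Bsg lay between -0.09 and -0.01 in Brd1+/- mice.

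Surface and secreted endothelial proteins and the ETS factors had log2 fold changes with intervals that held 0 in both genotypes. In Brd1+/- mice the 6 surface and secreted genes ran from -0.17 (Emcn, a sialomucin of veins and capillaries) to 0.31 (Vwf, SE 0.32), and Ly6c1, Ly6a, Itm2a and Egfl7 lay between. Erg was at 0.17 (SE 0.13) and Fli1 at -0.15 (SE 0.13).

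No mural gene passed either level with IMN in Brd1+/- mice. In Brd1+/- mice 7 of 8 were above 0, with a median of 0.12, and in WT mice 5 of 8 were above 0, with a median of 0.01. The pericyte genes Pdgfrb (the receptor through which endothelium recruits pericytes), Rgs5, Kcnj8 and Abcc9 (subunits of a potassium channel) and Vtn ran from -0.03 to 0.15 in Brd1+/- mice. Anpep was at 0.26 (SE 0.39) in Brd1+/- mice and -0.46 (SE 0.40) in WT mice and its SE was close to the size of its value in WT mice. Acta2 and Tagln were at 0.31 (SE 0.37) and 0.27 (SE 0.47) in Brd1+/- mice.

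No member passed a level in the genotype comparisons. With vehicle, 0 members passed the unadjusted level of 0.01 (0.7% of all genes did) or an adjusted p of 0.05 (0% of all genes), 18 were below 0 and 16 above 0, and the median was -0.01. This comparison shares the WT vehicle libraries with the contrast that led to the list. The log2 fold changes of Brd1+/- against WT were -0.18 (SE 0.13, unadjusted limma p = 0.196) for Sox18, -0.36 (SE 0.24, unadjusted limma p = 0.15) for Sox17 and -0.21 (SE 0.13, unadjusted limma p = 0.122) for Sox7. Ly6a, a surface antigen of endothelium, had medians of 28.7 TPM in WT and 22.8 TPM in Brd1+/- mice, and its log2 fold change was -0.29 (SE 0.17, unadjusted limma p = 0.0995, adjusted p = 1.0), and Slco1a4 was at 0.34 (SE 0.20, unadjusted limma p = 0.117, adjusted p = 1.0). Slc2a1 was at -0.17 (SE 0.13), and without WT vehicle replicate 1 it alone of the members passed the unadjusted level of 0.01. Of all genes tested, 125 higher and 258 lower passed that level in the same fit.

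Under IMN, where the WT IMN libraries are shared with that contrast, 0 members passed either level (0.614% of all genes passed the unadjusted level of 0.01 and 0% an adjusted p of 0.05). Sox18 was at 0.02 (SE 0.11, 95% interval -0.21 to 0.24), Sox17 at 0.09 (SE 0.17) and Sox7 at 0.09 (SE 0.11). The members with the smallest p were Pecam1 at 0.21 (SE 0.10, unadjusted limma p = 0.0577), Mfsd2a at -0.17 (SE 0.09, unadjusted limma p = 0.0827), Kcnj8 at 0.21 (SE 0.13, unadjusted limma p = 0.116), Eng at 0.16 (SE 0.11, unadjusted limma p = 0.142) and Emcn at 0.27 (SE 0.18, unadjusted limma p = 0.147), each with an adjusted p of 1.0. In the fit of the difference between IMN effects 0 members passed either level (0.547% and 0% of all genes did), a count given as a description. There Pecam1 was at 0.35 (SE 0.17), Eng at 0.24 (SE 0.14) and Slco1a4 at -0.34 (SE 0.26).

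Other vessel genes were described by 7 lists of 88 genes that cover VEGF, angiopoietin and apelin signalling, Notch, Wnt signalling of the barrier, tight junctions, blood flow responses, and further endothelial and mural genes. With IMN in Brd1+/- mice 3 of the 88 passed the unadjusted level of 0.01, beside 1.22% of all genes, and 0 passed an adjusted p of 0.05, and the median log2 fold change was 0.00. At the unadjusted level these were 1 of 9 tight junction genes (lower) and 2 of 22 further endothelial genes (1 lower and 1 higher), with 0 of 13 VEGF, angiopoietin and apelin genes, 0 of 9 Notch genes, 0 of 14 Wnt genes, 0 of 5 flow-responsive genes and 0 of 16 further mural genes. Ramp2 (chr11:101246028-101259546), a receptor partner for adrenomedullin that endothelium needs, had medians of 39.0 TPM with vehicle (28.6 to 61.8) and 29.0 TPM with IMN (20.5 to 34.6), with all 9 IMN libraries below the vehicle mean. Its log2 fold change was -0.45 (SE 0.14, unadjusted limma p = 0.00411, adjusted p = 0.7). F11r (chr1:171437535-171464603), a junctional adhesion molecule, had medians of 7.35 and 4.94 TPM and a log2 fold change of -0.47 (SE 0.16, unadjusted limma p = 0.00691, adjusted p = 0.789). Clec14a (chr12:58264720-58269290), a surface lectin of endothelium, was higher, with medians of 0.886 and 1.14 TPM and a log2 fold change of 0.35 (SE 0.11, unadjusted limma p = 0.00426, adjusted p = 0.713).

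In WT mice 63 of these 88 genes were below 0 with IMN, with a median of -0.06, beside 54.5% of all genes below 0 and a median of -0.01 over all genes. The unadjusted level of 0.01 was passed by 3 of them, all lower, and by 1.58% of all genes, of which 294 of 404 were lower. These values share the contrast that led to the list and are given without a test. Klf4, a factor that blood flow induces in endothelium, had medians of 6.67 TPM with vehicle (3.34 to 9.38) and 3.79 TPM with IMN (3.12 to 5.73), and its log2 fold change was -0.61 (SE 0.15). The Wnt target Axin2 was at -0.41 (SE 0.14) and the growth factor Vegfb at -0.15 (SE 0.05). Of the 5 flow-responsive genes, Nos3 (endothelial nitric oxide synthase) was at -0.44 (SE 0.17), Thbd (thrombomodulin) at -0.33 (SE 0.14), Klf2 at -0.30 (SE 0.16) and Edn1 (endothelin) at 0.03 (SE 0.21). In Brd1+/- mice Klf4 was at -0.25 (SE 0.18), Nos3 at -0.14 (SE 0.16), Klf2 at -0.07 (SE 0.15), Thbd at 0.05 (SE 0.18) and Edn1 at 0.37 (SE 0.16), and none passed the unadjusted level of 0.01.

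Genotype comparisons of the same lists gave 1 of the 88 genes each at the unadjusted level of 0.01, which 0.7% of all genes passed with vehicle and 0.614% under IMN, so both counts were near the background. With vehicle, Adgra2, a receptor of Wnt7 signalling in brain endothelium, had medians of 6.30 TPM in WT and 4.89 TPM in Brd1+/- mice, and its log2 fold change was -0.42 (SE 0.13, unadjusted limma p = 0.00481, adjusted p = 1.0). Under IMN, the amino acid carrier Slc38a5 had medians of 1.43 and 0.828 TPM and a log2 fold change of -0.69 (SE 0.24, unadjusted limma p = 0.00814, adjusted p = 1.0). In the fit of the difference between IMN effects 0 of the 88 passed that level, beside 0.547% of all genes.

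Members varied together between mice of the same group. For each member the deviation from its group mean was set against the mean deviation of the other members of its class over the 36 libraries. These correlations are descriptive, since the points share their library, their dissection and the TPM total. The median Pearson r was 0.565 for the 26 endothelial members, 16 of them over 0.5, and 0.746 for the 8 mural members, 6 of them over 0.5. It was 0.862 for Eng, 0.852 for Cdh5, 0.845 for Tie1 and 0.899 for Acta2, but 0.00743 for Bsg, 0.00329 for Egfl7, 0.159 for Kdr and 0.125 for Kcnj8. Sox18 had r = 0.589 and Spearman's rho = 0.595 over these 36 libraries, so it followed the other endothelial members within groups while its IMN difference was not shared by their mean. With the mean of the mural members Sox18 had r = 0.646, so this co-variation was not particular to the endothelial class.

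Among single members, Sox18 was most like Cldn5 (r = 0.704) and Sox17 (r = 0.656) over the 36 libraries. Many members also tracked genes of fibroblasts of the meninges and large vessels (9 genes, among them Dcn, Lum and Col1a2). With the mean of those genes, a comparison added after the data were seen, r was 0.870 for Tagln, 0.853 for Acta2, 0.815 for Cdh5, 0.811 for Vwf and 0.801 for Eng, and the median was 0.520 for endothelial and 0.744 for mural members. For Sox18 it was 0.557 and for Sox7 0.183.

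**Figure D4:**
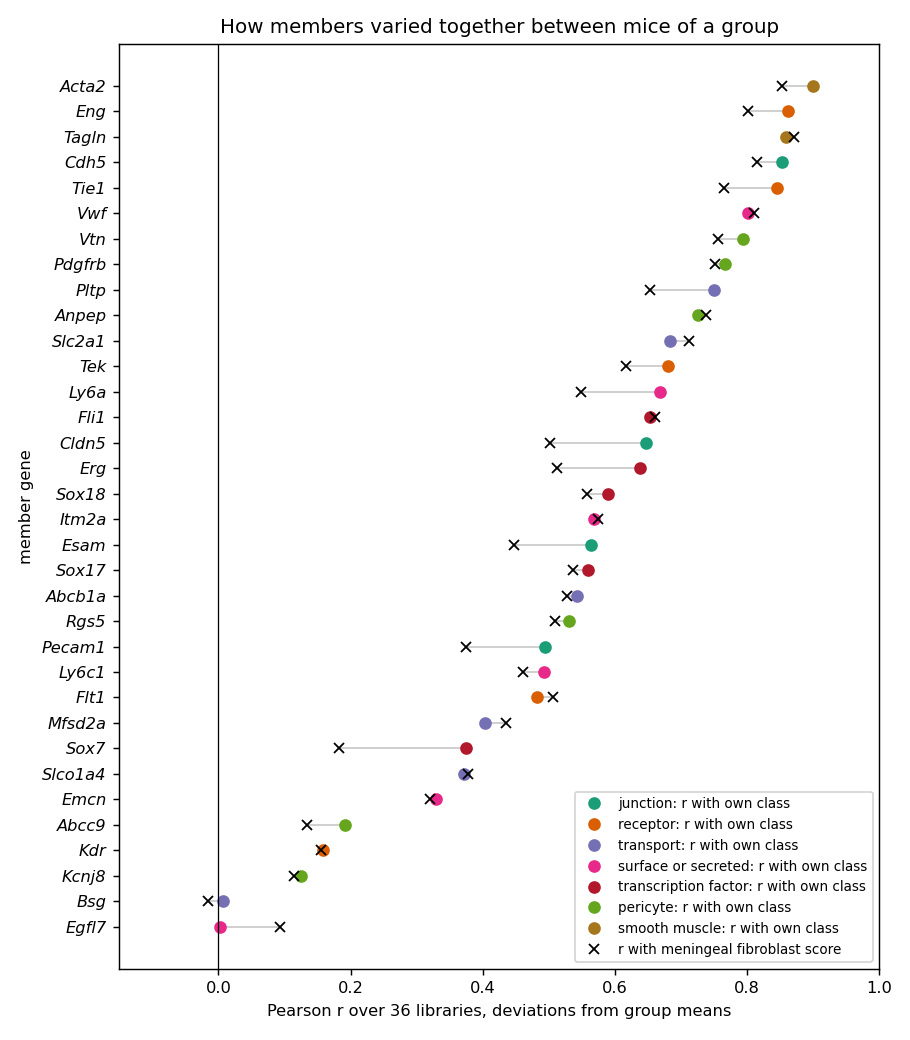
Pearson r (horizontal axis) over 36 libraries, after group means were removed, of each member (rows) with the other members of its class (coloured points, by role) and with the meningeal fibroblast marker score (crosses). Contractile genes and Eng, Cdh5 and Tie1 sit highest on both, and Egfl7 and Bsg lie near 0.

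Markers of other cells differed between some groups. All 9 fibroblast markers were above 0 with IMN in Brd1+/- mice, with a mean score difference of 0.623, and their summed level ran from 23.3 to 106 TPM with vehicle and from 17.1 to 233 TPM with IMN. In WT mice 4 of 9 were above 0 and the ranges were 18.5 to 106 and 12.5 to 130 TPM. All 8 oligodendrocyte markers were above 0 with IMN in both genotypes, by 0.592 in WT and 0.174 in Brd1+/- mice on the mean score, and their sums ran from 189 to 3495 TPM over all libraries. Microglial, astrocyte and neuronal scores differed by between -0.06 and 0.03 with IMN in either genotype. The erythrocyte score differed by -0.245 in WT and 0.03 in Brd1+/- mice, with sums from 205 to 1192 TPM over all libraries. No list had a marker with a median of 0 over the 36 libraries. With the oligodendrocyte and fibroblast scores as covariates, Sox18 with IMN in Brd1+/- mice was at -0.443 (unadjusted limma p = 0.00596, adjusted p = 0.554), Sox17 turned to -0.142, and the median of the members turned from 0.06 to -0.06. With the same covariates in WT mice, as a description, Sox18 was at -0.502, Sox7 at -0.362, Sox17 at -0.341 and Slco1a4 at 0.571, and 5 members were past the unadjusted level of 0.01 (Sox18, Sox7, Slco1a4, Abcb1a and Eng). Of all 25572 genes tested, 110 higher and 302 lower were past that level in the same fit. Of the further genes with IMN in Brd1+/- mice, Ramp2 was then at -0.529 and F11r at -0.586 (unadjusted limma p = 0.00196 and 0.00208, adjusted p = 0.49 for both), and Clec14a at 0.26 no longer passed (unadjusted limma p = 0.0214, adjusted p = 0.678). WT vehicle replicate 1 had the lowest endothelial and fibroblast scores and the highest oligodendrocyte score of its group.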

How the data were processed

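RNA of 36 aCC samples was sequenced on the BGISEQ-500 as single-end reads. The authors trimmed the reads with Trimmomatic, aligned them with HISAT2 2.1.0 to GRCm38 and estimated abundance with StringTie 1.3.4, and the deposited values are TPM, which sum to between 999727.1 and 999889.0 per library. Read depth per library is not given in the sources used here, and TPM keeps none, so no counting interval was computed and precision rests on the number of mice. Groups were taken from the genotype and treatment labels.

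The 34 members and the further gene lists were chosen with earlier results of these data known. Symbols were matched to 1 identifier each for all 162 listed genes. Genes that reached 0.1 TPM in 8 or more libraries were tested as log2(TPM + 0.5) with limma 3.58.1 in R 4.3.3 (eBayes with a trend, libraries of the compared groups only, all 36 for the interaction), and p was adjusted by Benjamini-Hochberg over all 25572 genes. P-values measure the spread between mice. The fit was tested on simulated data with the gene means and spreads of these libraries. There 69 of 100 genes changed 1.5-fold passed an adjusted p of 0.05 for IMN in Brd1+/- mice. Genes were drawn independently of each other, and changes were planted only in genes of higher level. The result therefore does not say what share of real changes of that size would pass in these data. Full statistics were given for the SoxF genes, for the 5 members with the smallest p in each tested comparison (without p for the interaction), for the 5 with the largest fold change with IMN in WT mice, and for up to 3 genes per further list past an unadjusted p of 0.01. Other members were given by value under their role, and the flow-responsive genes beside Klf4 were named after their values were seen. Alternatives were other pseudocounts, filters, scalings, library weights, marker score covariates, a shared fit, a replicate block and leaving out each library. Promoter sequences came from RefSeq (GRCm38.p6), gene positions from GENCODE M21 (GRCm38). Scores were means of log2 values. Python 3.11.15 with pandas 2.3.3 and scipy 1.17.1 served for summaries.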

Additional observations from a re-analysis of the deposited data

Results flagged for a closer look

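In 8 of 136 groups of 8 to 10 libraries, 1 library of a member lay far from the rest by Dixon's criterion, and chance alone flags about 5% of groups. WT vehicle replicate 1 was the lowest of its group for Cdh5 (4.50 TPM, the others 7.27 to 10.0), Slc2a1 (52.1 TPM, the others 85.5 to 113) and Sox7 (0.765 TPM, the others 1.11 to 1.41). Brd1+/- vehicle replicate 7 was the lowest for Flt1 (9.12 TPM, the others 13.9 to 21.0) and the highest for Sox17 (8.11 TPM, the others 2.50 to 4.14). Brd1+/- IMN replicate 4 was the lowest for Tek (3.09 TPM, the others 4.50 to 5.95) and Pdgfrb (3.99 TPM, the others 6.07 to 7.87). WT IMN replicate 8 was the highest for Egfl7 (40.9 TPM, the others 29.3 to 34.1).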

How the results depend on the processing

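Of the values under alternative settings that kept every library, 448 counted as unchanged, 3 as moved, 4 as reversed and 3 as stronger. Of those with 1 library left out, 1000 counted as unchanged, 13 as moved, 12 as reversed and 4 as stronger. For single members outside the WT contrast with IMN, unchanged meant the same direction and the same side of the unadjusted level. For medians and for WT values with IMN it meant a shift smaller than the within-group SD. For counts of members it meant a small relative change. A median near 0 could therefore change sign and still count as unchanged. With the oligodendrocyte and fibroblast scores as covariates, 2 members (Sox18 and Pltp) passed the unadjusted level of 0.01 with IMN in Brd1+/- mice, with log2 fold changes of -0.443 and -0.486, while Sox17 was at -0.142 there, and under IMN the genotype values of Sox18 and Sox17 were -0.0912 and -0.0294. Of all 25572 genes tested, 190 higher and 235 lower passed that level with IMN in Brd1+/- mice with these covariates. With all 36 libraries in one fit, 1 member passed (Sox18, at -0.345, unadjusted limma p = 0.0066), beside 213 higher and 170 lower of all genes. With quantile normalization Sox17 with IMN in Brd1+/- mice was at -0.00298. The causes were not tested.

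With 1 library left out, Sox18 with IMN in Brd1+/- mice ran from -0.402 (without IMN replicate 9, when it passed the unadjusted level) to -0.273 (without vehicle replicate 7). From 0 to 1 members then passed that level, namely Pecam1 without vehicle replicate 1 or IMN replicate 6, and Pltp without vehicle replicate 9. Of all 25572 genes, 144 higher and 154 lower passed it without IMN replicate 9, and 151 and 150 without vehicle replicate 1. Without IMN replicate 6 these were 182 and 127, and without vehicle replicate 9 they were 196 and 129. Sox17 ran from -0.0586 to 0.161 in the same mice, and Sox18 under IMN ran from -0.0422 to 0.0814 between genotypes. In WT mice from 2 to 4 members passed the unadjusted level with IMN and from 0 to 1 an adjusted p of 0.05 (Sox18, without vehicle replicate 1), and with vehicle from 0 to 1 passed the unadjusted level between genotypes. In those WT fits with IMN, from 80 to 212 of all 25572 genes passed the unadjusted level higher and from 214 to 578 lower. Both highest counts came without vehicle replicate 1, where 3 genes higher and 29 lower passed an adjusted p of 0.05.

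With the replicate number as a block, 1 member passed the unadjusted level with IMN in WT mice (Sox18), beside 77 higher and 360 lower of all genes. With that block Sox18 in Brd1+/- mice was at -0.345 (unadjusted limma p = 0.0506, adjusted p = 0.965). Samples with the same number did not deviate together (r from -0.263 to 0.262 over 51 pairs, 4 of them over 0.1), so the numbers were not taken to pair mice. TPM keeps no depth, so members with low levels such as Sox7 cannot be given a counting error.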
